A study of Mus musculus with 4 samples.

Results

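The expression of 8 genes of Wnt and beta-catenin signalling was followed through the cells of the aorta-gonad-mesonephros region (AGM), in which the first haematopoietic stem cells of the mouse embryo arise. The genes are Lef1, Axin2, Nkd1, Apcdd1, Tcf7, Tcf7l1, Ctnnb1 and Foxq1, chosen by name from the 32285 genes counted. They were chosen with earlier results of these data known. The study asked how mitochondrial activity relates to haematopoietic stem cell function, and sorted AGM cells positive for CD31 (the product of Pecam1, a junction protein of endothelium and some blood cells) from C57BL/6J embryos at E11.5. TMRM, a dye that collects in mitochondria with a high membrane potential, split them into cells of low potential, MMPlow, and of high potential, MMPhigh, with 2 single-cell libraries each of 3′ unique molecular identifiers (UMIs, which count captured RNA molecules). The labels name no treatment and no other allele. They do not give the number of embryos or say whether the libraries of a gate came from separate sorts, so p-values measure the spread between these libraries, which may be technical.

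The gates differed in which cells they held. MMPlow 1, MMPlow 2, MMPhigh 1 and MMPhigh 2 retained 16698, 18583, 4403 and 3418 cells with medians of 3145, 3651, 3685 and 23668.5 UMIs, and pairs of libraries shared 14 to 369 barcode sequences. Endothelial-like cells made up 45.9% and 47.3% of MMPlow and 0.363% and 0.410% of MMPhigh, where they numbered 16 and 14. These shares depend on the cell filter, before which the libraries held 59928, 23715, 13939 and 4288 barcodes. With a looser filter of 1000 UMIs and 500 genes, endothelial-like cells were 9875 of 55782 and 9961 of 22407 cells in MMPlow. In MMPhigh they were then 20 of 9257 and 16 of 3528. Pecam1, whose protein was sorted on, stood at 275 and 261 CPM (UMIs of the gene per 1000000 UMIs) over all MMPlow cells and 24.9 and 22.0 CPM over all MMPhigh cells, and at 1.22 and 1.54 CPM in the mesenchymal-like and 6.03 and 2.94 CPM in the neural-like cells of MMPhigh. Cells without a class name were 38.9% of MMPhigh 1 and at most 8.46% of each other library.

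In canonical Wnt signalling a ligand joins a Frizzled receptor to Lrp5 or Lrp6, the complex that destroys beta-catenin is held off, and beta-catenin (the product of Ctnnb1) reaches the nucleus. There it binds TCF/LEF proteins, of which Lef1 and Tcf7 act mostly as activators and Tcf7l1 mostly as a repressor. Axin2, Nkd1 and Apcdd1 are transcribed in response and restrain the pathway, Axin2 as a scaffold of the destruction complex, Nkd1 through Dishevelled and Apcdd1 at the cell surface. Foxq1 is a forkhead transcription factor found in brain endothelium. In vessels of the central nervous system (CNS) neural Wnt7a and Wnt7b, acting with the co-receptors Adgra2 and Reck, drive vessel ingrowth and the blood-brain barrier.

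In the mm10 assembly (GENCODE vM21) Lef1 lies at chr3:131110471-131224356, Axin2 at chr11:108920349-108950783, Nkd1 at chr8:88521354-88594884, Tcf7 at chr11:52252371-52283014, Tcf7l1 at chr6:72626378-72789254, Ctnnb1 at chr9:120929216-120960507 and Foxq1 at chr13:31556134-31560976. No other counted gene overlaps one of them on its own strand. RefSeq start sites (GRCm38.p6) were matched for 6 of the 8, in 11 windows of 250 bases before a start. The TCF/LEF core was searched on both strands as CTTTG followed by 2 bases that are each A or T, letters that overlap sites of Sox proteins. It was found in 14.84% of all 32851 windows of that length and in 1 of these 11. Of the 4 Lef1 windows the internal one is shown because it holds the only match, in capitals as read on the printed strand. The other Lef1 windows, 2 of them near the first start of the gene, hold none. The windows of Axin2 and Nkd1, feedback inhibitors that were high in the same endothelial group as Lef1, are shown beside it. Both windows of Tcf7, also high there, hold no match and are not shown. Each is written 5′ to 3′ on the plus strand.
Lef1 internal start, chr3:131156044-131156293, intronic in longer Lef1 transcripts: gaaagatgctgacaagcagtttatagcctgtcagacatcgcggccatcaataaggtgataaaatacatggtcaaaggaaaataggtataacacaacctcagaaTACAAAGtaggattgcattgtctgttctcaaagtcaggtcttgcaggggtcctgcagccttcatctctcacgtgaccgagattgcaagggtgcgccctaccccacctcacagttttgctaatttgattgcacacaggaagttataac
Axin2, chr11:108920099-108920348, directly upstream of the gene: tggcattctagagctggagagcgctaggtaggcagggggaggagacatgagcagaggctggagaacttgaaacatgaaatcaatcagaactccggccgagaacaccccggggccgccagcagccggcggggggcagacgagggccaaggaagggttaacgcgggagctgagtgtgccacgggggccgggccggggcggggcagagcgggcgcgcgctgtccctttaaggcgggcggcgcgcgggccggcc
Nkd1, chr8:88527383-88527632, intronic in a longer Nkd1 transcript: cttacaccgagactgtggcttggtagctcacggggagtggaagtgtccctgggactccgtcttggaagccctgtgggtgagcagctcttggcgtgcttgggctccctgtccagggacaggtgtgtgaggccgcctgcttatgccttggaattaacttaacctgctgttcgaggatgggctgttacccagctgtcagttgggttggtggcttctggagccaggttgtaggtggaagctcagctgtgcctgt
The match in the Lef1 window begins 147 bases before the start. A window without a match shows only that these letters are not in it.

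In the MMPlow libraries 6 of the 8 genes were highest, among endothelial groups, in CNS-type endothelium-like cells, a cluster of 1263 and 1454 cells in the 2 libraries. The cells had been clustered without the 8 genes and without the other Wnt pathway genes, and none of the 8 is among the markers that named this cluster. Levels of groups cut from the same cells are descriptions, so they carry no test. The 8 genes were chosen with earlier results of these data known. The share of all genes highest in the CNS-type cluster was not computed, so the count of 6 has no background to be set against. Below, paired values are MMPlow 1 and MMPlow 2 in that order unless said otherwise.

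Lef1, the activating TCF/LEF factor, stood at 324 and 329.9 CPM in CNS-type cells. The next endothelial cluster, led by Mdga2, Col15a1 and Ebf3, reached 119.9 and 118 CPM, venous endothelium-like cells 82.4 and 76.7 CPM and arterial endothelium-like cells 72.4 and 60.9 CPM. The lowest endothelial level was in the Gata4/Oit3/Stab2 cluster, at 28.4 and 30.9 CPM. Every endothelial group thus lay above macrophage-like cells (13.02 and 9.47 CPM), and the CNS-type group overlapped none of the others.

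The feedback inhibitors were high in the same group. Axin2 was at 24.9 and 20.6 CPM in CNS-type cells and between 1.72 and 5.86 CPM in 6 of the other 7 endothelial groups. In the remaining small Hbb-y/Hba-x/Fendrr cluster Axin2 was at 21.7 and 5.76 CPM, from 5 and 3 UMIs, and overlapped the CNS-type range. Nkd1 was at 88.0 and 88.3 CPM in CNS-type cells, 14.7 and 13.6 CPM in the Cdc20/Ccnb2/Cenpa cluster of cycling genes and 7.02 and 7.42 CPM in arterial cells. Apcdd1 (chr18:62922231-62961179 in the same assembly) was at 125 and 127 CPM in CNS-type, 17.8 and 14.1 CPM in arterial and 5.05 and 4.6 CPM in venous cells. Of 28 cell groups with enough MMPlow cells to be ordered, CNS-type cells held the most Lef1, Nkd1, Apcdd1, Tcf7 and Foxq1, with no overlap with the next group. The share of all genes of which this holds was not computed.

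Foxq1 was at 67.7 and 61.3 CPM in CNS-type cells and 11.9 and 9.65 CPM in arterial cells, and at most 8.35 CPM in the other endothelial groups. Tcf7, the other activating factor, was at 19.1 and 19.7 CPM in CNS-type and 7.02 and 6.31 CPM in arterial cells. Neither gene overlapped between CNS-type cells and another endothelial group.

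**Figure D1:**
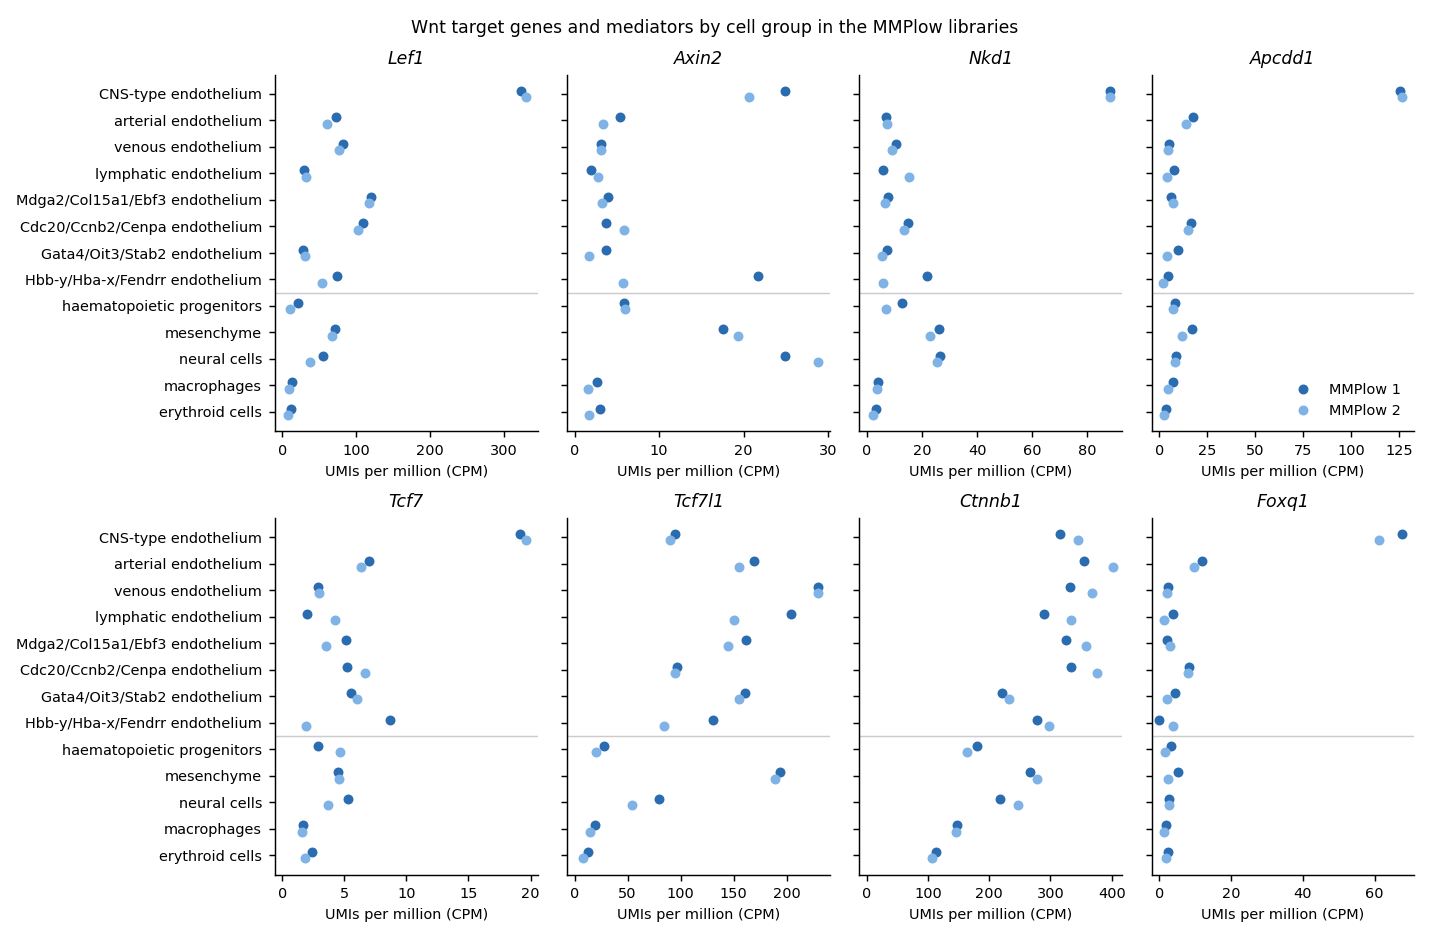
Each panel gives 1 gene in CPM by cell group, with 1 point for each MMPlow library. Both CNS-type points of Lef1, Nkd1, Apcdd1, Tcf7 and Foxq1 lie above those of every other endothelial group, and those of Tcf7l1 and Ctnnb1 do not.

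Against all other endothelial-like cells of the same library, CNS-type cells held 3.34 and 3.62 times the level of Lef1, 6.34 and 5.53 times that of Axin2 and 8.67 and 9.85 times that of Nkd1. The ratios were 13.1 and 14.7 for Apcdd1, 14.5 and 13.8 for Foxq1 and 4.003 and 4.35 for Tcf7. Tcf7l1 went the other way, with ratios of 0.581 and 0.585, and Ctnnb1 lay near 1, at 0.976 and 0.963. The RNA of beta-catenin itself thus differed little where 6 of its partners and reported targets differed several-fold.

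Other reported targets did not all share that direction. Tnfrsf19, a TNF-receptor family member, had ratios of 7.09 and 6.72 at 92.4 and 94.6 CPM, and Znrf3, a ubiquitin ligase that removes Frizzled receptors, had ratios of 2.13 and 2.15. Ccnd1 (cyclin D1) was lower in CNS-type cells, with ratios of 0.805 and 0.788, and Myc had ratios of 0.953 and 0.654. Nkd2, the paralogue of Nkd1, was at 2.79 and 1.86 CPM, so only 1 of the 2 paralogues was abundant in these cells.

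Genes of the barrier list helped to name the group and are given for orientation. Slc2a1, the glucose transporter of barrier vessels, was at 291 and 298 CPM against 105 and 117 CPM in other endothelium, and Mfsd2a, a lipid transporter, at 14.3 and 14.7 against 0.567 and 0.770 CPM. Not all of the barrier list was so much higher in CNS-type cells. Ratios to other endothelium were 0.759 and 0.857 for Slc16a1, 0.638 and 1.15 for Ocln and 1.26 and 1.32 for Abcg2. Cdh2 (N-cadherin), which binds beta-catenin at junctions and was no naming marker, was at 1339 and 1472 against 168 and 183 CPM in other endothelium.

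**Figure D2:**
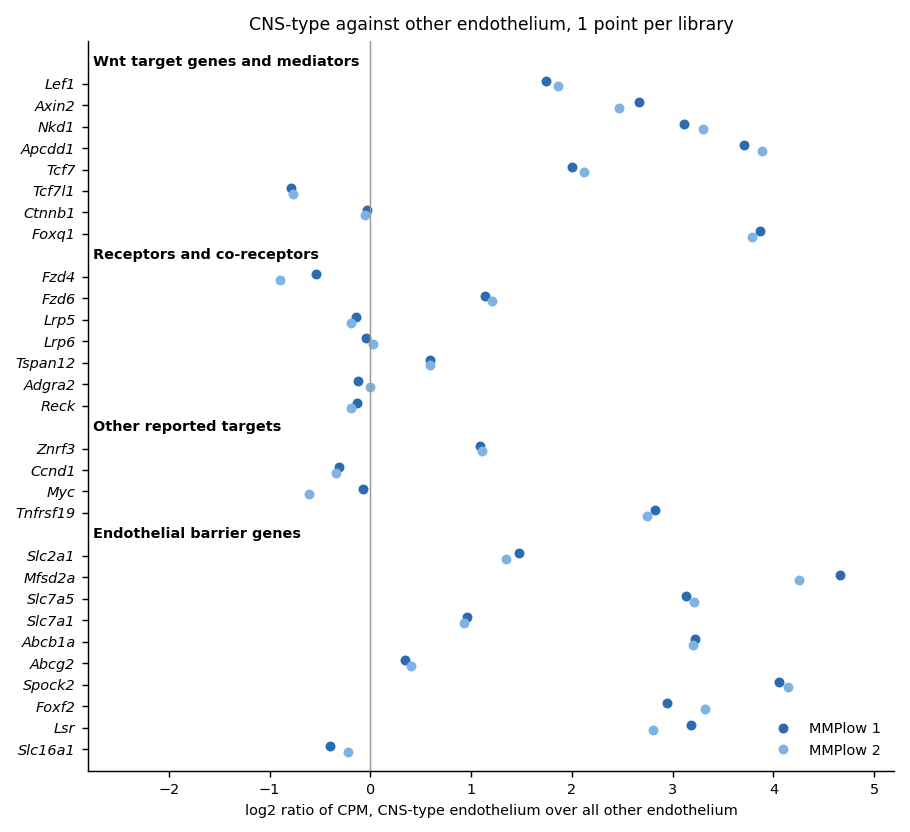
The horizontal axis is the log2 ratio of CPM in CNS-type over all other endothelial-like cells, with 1 point per MMPlow library. Shown are the 8 genes and the receptors and co-receptors Fzd4, Fzd6, Lrp5, Lrp6, Tspan12, Adgra2 and Reck. Of the targets Nkd2, Sp5, Znrf3, Rnf43, Ccnd1, Myc and Tnfrsf19 and of the barrier list, those that reach 10 CPM in either population are added. Other listed genes are not plotted. Of the 8 genes, 6 lie right of 0 in both libraries, Tcf7l1 lies left of it and Ctnnb1 lies next to it.

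Some CNS-type cells held UMIs of several of the 6 genes that were high in this group. With each cell thinned to 2000 UMIs, 79 CNS-type cells of MMPlow 1 held UMIs of at least 3 of Lef1, Axin2, Nkd1, Apcdd1, Tcf7 and Foxq1, a share of 6.25% (exact 95% binomial interval 4.98% to 7.73%). In MMPlow 2 there were 90, or 6.19% (5.01% to 7.55%). Intervals cover counting error only. In every other endothelial group the share was at most 0.396%, although the interval of the 51 Hbb-y/Hba-x/Fendrr cells of MMPlow 1 reached 6.98%, and in macrophage-like cells it was 0 of 1610 and 0 of 1939. Median depth before thinning was 3202 and 3603.5 UMIs in CNS-type and 2868.5 and 3374 UMIs in macrophage-like cells. The 6 genes are those that were highest in this group, so a larger share there follows in part from that choice, and the shares are a description. The share that the separate detection rates would give was not computed.

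**Figure D3:**
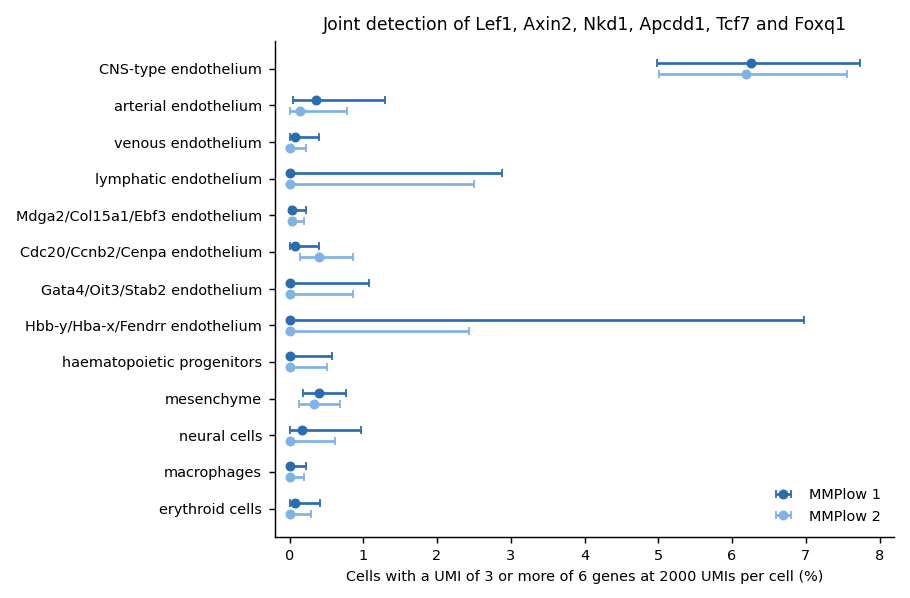
The plot gives the percentage of cells, thinned to 2000 UMIs, with UMIs of at least 3 of the 6 genes, by cell group and MMPlow library, with exact 95% binomial intervals. The CNS-type points, 6.25% and 6.19%, lie above all others for these genes, which are the ones highest in that group, and only the wide interval of the Hbb-y/Hba-x/Fendrr cluster in MMPlow 1 reaches their intervals.

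Within CNS-type cells, each pair of Apcdd1, Nkd1 or Foxq1 with another of the 6 genes was examined. The other gene was found in a larger share of cells with the first than without it, in both libraries, for 8 of 12 pairs. With Slc2a1, Slc7a5 (an amino acid transporter of barrier vessels), Tcf7l1 or Ctnnb1 in its place this held for 6 of 12 pairs. Cells with an Apcdd1 UMI held Lef1 in 48.9% against 45.0% of cells without one in MMPlow 1, and in 53.2% against 42.8% in MMPlow 2. They held Nkd1 in 18.7% against 13.4% and in 19.7% against 11.4%. They held Axin2 in 3.44% against 4.995% and in 7.02% against 3.64%, opposite in direction between the libraries. Ctnnb1, which differed little between CNS-type and other endothelium, gave 51.5% against 47.1% and 54.5% against 48.7%, while Slc2a1 gave 44.3% against 38.0% in MMPlow 1 and 38.1% against 39.9% in MMPlow 2. No test was made across cells.

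Tcf7l1, the mostly repressive factor, had another order. Among endothelial groups it was highest in venous cells at 229.6 and 229.7 CPM, followed by lymphatic endothelium-like cells at 204 and 150.2 CPM and arterial cells at 169.6 and 155 CPM, the last 2 overlapping. Its lowest mean was in CNS-type cells, at 94.2 and 89.7 CPM, beside the cycling cluster at 96.6 and 94.6 CPM. Outside endothelium it was high in the Acta2/Tagln/Prdm6 mesenchymal cluster (269.8 and 254 CPM) and in epithelial or mesonephric-like cells (269 and 244 CPM), which overlapped. Among endothelial groups Ctnnb1 ran from 221 and 232 CPM in the Gata4-led cluster to 355 and 402 CPM in arterial cells, with CNS-type cells between at 315 and 345 CPM.

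Of the ligands upstream, Wnt7b was found in neural tube progenitor-like cells at 80.8 and 45.9 CPM, from 23 and 22 UMIs, and Wnt7a there at 7.02 and 12.5 CPM, from 2 and 6 UMIs. In CNS-type cells themselves Wnt7b was at 0.398 and 0.155 CPM, and Ndp (norrin, a ligand of Fzd4) had no UMI. Rspo3, which protects Frizzled receptors from removal, was at 59.4 and 78.5 CPM in mesenchymal-like, 22.7 and 35.3 CPM in arterial and 4.18 and 3.87 CPM in CNS-type cells. Of the 24 ligands listed, Wnt5b was the highest in CNS-type cells, at 8.76 and 5.27 CPM and 1.79 and 1.20 times its level in other endothelium. Wnt4, named after its values were seen, was at 2.19 and 1.86 CPM there, with ratios of 1.46 and 1.26.

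Receptors lay in both directions between CNS-type and other endothelium. The co-receptors Lrp5, Lrp6, Adgra2 and Reck had ratios between 0.874 and 1.02. Tspan12, which assists Fzd4, had ratios of 1.51 and 1.502 and Fzd4 itself 0.688 and 0.538. Fzd6 had ratios of 2.19 and 2.31 but was higher still in arterial cells (75.6 and 89.8 against 54.0 and 62.7 CPM). Of receptors named after their values were seen, Fzd10 had ratios of 2.45 and 2.48, Fzd8 0.422 and 0.478, Lgr4 0.458 and 0.513 and Ror2 0.402 and 0.287. The secreted inhibitor Dkk2 was mostly arterial, at 186 and 212 CPM against 2.39 and 3.25 CPM in CNS-type cells. Tcf7l2, the remaining TCF, was lower in CNS-type cells, with ratios of 0.731 and 0.656.

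In haematopoietic progenitor-like cells of MMPlow Lef1, Nkd1 and Apcdd1 were low beside CNS-type endothelium. Lef1 was at 20.8 and 10.9 CPM, Nkd1 at 12.6 and 6.96 CPM, Apcdd1 at 8.22 and 6.96 CPM and Tcf7l1 at 27.6 and 20.5 CPM, while Ctnnb1 was at 180.3 and 164 CPM. Axin2, at 5.80 and 5.96 CPM, was not lower than in most endothelial groups: it overlapped the cycling Cdc20-led cluster (3.77 and 5.86 CPM) and lay above the arterial (5.40 and 3.34 CPM), Mdga2-led, venous, Gata4-led and lymphatic groups. At 2000 UMIs per cell Lef1 was found in 3.76% and 2.21% of these cells, against 2.05% and 2.06% of macrophage-like and 2.92% and 1.25% of erythroid-like cells. For Tcf7l1 the shares were 4.39% and 3.17% against 3.66% and 2.78% in macrophage-like cells, and for Nkd1 2.35% and 1.24% against 0.870% and 0.722%. Median depth was 2812.5 and 3300 UMIs in progenitor-like cells and 2868.5 and 3374 in macrophage-like cells. The shares of Lef1 and Tcf7l1 were close to this background in MMPlow 2. The 12 endothelial markers, none at 0, summed to 1347 and 1014 CPM in progenitor-like and 845 and 699 CPM in macrophage-like cells, and their part in these levels was not tested. Among related genes Rnf43, a ubiquitin ligase that removes Frizzled receptors, was at 58.5 and 37.4 CPM in progenitor-like and 1.20 and 0.155 CPM in CNS-type cells.

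Mesenchymal-like cells fell into 4 clusters that held different amounts of Axin2. The Tmem132c/Prrx1/Tbx15 cluster had 31.6 and 36.9 CPM, the Col2a1/Col9a1/Gm29478 cluster with cartilage genes 16.3 and 18.9 CPM, the Unc5c/Wt1/Nkain2 cluster 12.4 and 11.51 CPM and the Acta2/Tagln/Prdm6 cluster with contractile genes 8.62 and 7.97 CPM. No neighbours in this order overlapped. Lef1 (92.9 and 81.6 CPM) and Apcdd1 (32.1 and 25.6 CPM) were also highest in the first of them.

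Among neural-like cells Axin2 was highest in 2 subclusters, led by Lhx9, Barhl2 and Atoh1 (74.7 and 54.8 CPM, from 13 and 11 UMIs) and by Otp, Crabp1 and Neurog2 (53.6 and 82.1 CPM, from 8 and 13 UMIs), which overlapped. In MMPhigh, with more UMIs per cell, these subclusters held 52.9 and 45.0 CPM and 69.3 and 41.8 CPM. Neural tube progenitor-like cells followed at 35.1 and 39.7 CPM in MMPlow, above the 24.9 and 20.6 CPM of CNS-type endothelium. The Lhx9-led subcluster also held Nkd1, at 57.4, 44.8, 94.9 and 76.0 CPM over MMPlow 1, MMPlow 2, MMPhigh 1 and MMPhigh 2, with little Lef1 (11.49, 14.9, 20.2 and 14.6 CPM). Neural crest derivative-like cells held Lef1 at 81.1, 99.1, 142 and 127 CPM and Nkd1 at 9.83, 19.0, 26.6 and 22.4 CPM in the same libraries. In neuron-like cells Lef1 was at 0, 0, 5.60 and 11.47 CPM, where the 3 UMIs that a count of 0 allows would be 20.1 and 14.0 CPM in the MMPlow libraries, so a level like that of MMPhigh was not detectable there. Neural tube progenitor-like cells held both genes, with Nkd1 at 38.6 and 54.3 CPM and Lef1 at 63.2 and 20.9 CPM in MMPlow. The neural subcluster with the highest mean Lef1 in MMPlow was led by the endothelial genes Emcn, Flt1 and Kdr, with Lef1 at 98.9 and 117 CPM, overlapping neural crest derivative-like cells, and Nkd1 at 38.5 and 13.7 CPM.

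Germ cell-like cells held the most Lef1 after CNS-type endothelium, at 259.9, 229, 147 and 207 CPM over the 4 libraries, from 30, 29, 76 and 48 cells. Nkd1 had no UMI there in 3 libraries and was at 2.41 CPM in MMPhigh 2.

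The genes of most similar pattern were ranked by Pearson's r of log2(CPM + 10) over 18 points of MMPlow, the named classes and endothelial subtypes, among 7477 genes. The points share libraries, so r is a description. Apcdd1 and Foxq1 were nearest to each other (r = 0.93), followed for both by Vwa1 (r = 0.91 and 0.91), and Tcf7 was nearest to Foxq1 (r = 0.92). Mean levels of Apcdd1, Foxq1 and Tcf7 were 126, 64.5 and 19.4 CPM in CNS-type cells. In arterial cells, the next of these points for each gene, they were 16.0, 10.8 and 6.67 CPM. These r values therefore depend much on the CNS-type point. Lef1 was nearest to Slc39a10 (r = 0.89), Nkd1 to Kcp (r = 0.87) and Spock2 (r = 0.87), and Axin2 to Cdh6 (r = 0.88). Tcf7l1 was nearest to Farp1 (r = 0.96) and Ctnnb1 to Parva (r = 0.95). Between members, r was 0.87 for Tcf7l1 with Ctnnb1 and 0.12 for Tcf7l1 with Foxq1.

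The gates were compared as MMPhigh over MMPlow on UMIs summed per library, by edgeR's quasi-likelihood test with Benjamini-Hochberg adjustment over all genes tested. A single value in 2 libraries against 2 cannot reach an exact permutation p below 0.333.

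Over all cells 6 of the 8 genes were lower and Axin2 was higher in MMPhigh, where 53.7% of all genes passed the adjusted p of 0.05, 26.5% lower and 27.2% higher. Lef1 was at 84.6 and 76.3 CPM in MMPlow and 24.3 and 26.8 CPM in MMPhigh (log2 fold -1.62 ± 0.09 SE). Foxq1 was at 9.02 and 7.65 against 1.02 and 0.280 CPM and Axin2 at 8.98 and 7.89 against 13.2 and 13.2 CPM. The gates did not overlap for any of the 8 genes, and the share of all genes without overlap was not computed. Apcdd1 was at 19.2 and 16.9 against 5.34 and 3.69 CPM and Tcf7 at 5.26 and 4.97 against 2.02 and 1.62 CPM. Tcf7l1, at 117 and 101 against 64.1 and 74.2 CPM, and Ctnnb1, at 256 and 269 against 177 and 174 CPM, fell by less (log2 folds -0.62 and -0.54, against -1.99 and -1.48). Nkd1 did not pass, at 18.3 and 15.6 against 14.5 and 13.8 CPM (adjusted p = 0.117). The median log2 fold was -1.05 for the 8 genes and 0.01 for all genes. Of 96 other Wnt pathway genes tested 27 were higher and 22 lower.

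The cells behind these sums differed between gates. Endothelial-like cells gave 70.9% and 75.8% of Lef1 UMIs in MMPlow and 1.40% and 1.67% in MMPhigh. Neural-like cells gave 11.8% and 13.7% of Axin2 UMIs in MMPlow and 54.4% and 63.7% in MMPhigh. In such sums fewer cells of a type and less RNA per cell cannot be told apart. With equal numbers of cells from 5 classes, endothelium not among them, 1 of the 8 genes passed, where 8.83% of all genes did, and the log2 folds of Axin2 and Tcf7l1 changed sign, to -0.034 and 0.20. The classes were then equal in cells but not in UMIs. Their median depths ran from 2868.5 (macrophage-like) to 3865.5 UMIs (neural-like) in MMPlow 1. In MMPhigh 1 they ran from 3452 (megakaryocyte-like) to 33008 UMIs (erythroid-like), so the classes still differed between gates in weight.

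Within endothelial-like cells none of the 8 genes passed by edgeR, where 1.43% of all genes did (0.572% higher and 0.858% lower), and DESeq2 called none. By edgeR 3 had an unadjusted p under 0.05, as had 13.4% of all genes. Nkd1 was at 23.3 and 22.1 CPM in MMPlow and 20.4 and 77.1 CPM in MMPhigh (log2 fold 1.19 ± 0.38 SE, adjusted p = 0.154), from 5 and 27 UMIs in MMPhigh, and Lef1 at 135 and 131 against 57.0 and 137 CPM. For both genes the 2 MMPhigh libraries lay on either side of MMPlow. Apcdd1 was at 29.1 and 28.2 against 20.4 and 77.1 CPM, likewise on either side, while Tcf7l1 did not overlap, at 151 and 143 against 163 and 254 CPM (adjusted p = 0.214 by edgeR). Of the 14 endothelial-like cells of MMPhigh 2, 4 were CNS-type, and they held 23 of its 27 endothelial Nkd1 UMIs. CNS-type cells were 16.5% and 16.5% of endothelial-like cells in MMPlow and 6.25% and 28.6% in MMPhigh. Without MMPhigh 1, Nkd1, Apcdd1 and Tcf7l1 passed as higher, where 4.12% of all genes passed, and without MMPhigh 2, Lef1 passed as lower, where 1.37% did. In simulated data for this comparison a log2 change of 1 was recovered for 25% of the genes given it. The simulated libraries shared a pooled profile and a common dispersion, so differences in CNS-type share between libraries were not simulated.

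Of the other Wnt pathway genes 1 of 67 tested passed in endothelial-like cells, a share near the 1.43% of all genes. It was the inhibitor Dkk2, at 15.7 and 17.9 CPM in MMPlow and 40.7 and 68.6 CPM in MMPhigh (log2 fold 1.72 ± 0.33 SE, adjusted p = 0.0115 by edgeR). Arterial cells, which held most Dkk2, were 7.24% and 8.14% of endothelial-like cells in MMPlow and 12.5% and 14.3% in MMPhigh (2 cells in each MMPhigh library), and the part of that share was not tested. Dkk2 did not pass without MMPlow 1, MMPlow 2 or MMPhigh 2 (adjusted p = 0.196, 0.106 and 0.295 by edgeR) or with cells thinned to 2000 UMIs (adjusted p = 0.689), at log2 folds of 1.66, 1.83, 1.25 and 1.60. Without MMPlow 1 none of the 32 list genes tested passed, where 0.734% of all genes did (50 of 6809). Without MMPhigh 1, 8 of 78 passed, all higher, where 4.12% of all genes did, and without MMPhigh 2, 1 of 78 passed, as lower, where 1.37% did.

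Within mesenchymal-like cells 4 of the 8 genes rose in MMPhigh and none fell, where 20.1% of all genes passed and 7.85% were higher. Axin2 was at 17.5 and 19.3 CPM in MMPlow and 28.8 and 33.6 CPM in MMPhigh (log2 fold 0.83 ± 0.15 SE, adjusted p = 0.00328 by edgeR). Nkd1 was at 26.0 and 23.0 against 35.3 and 42.8 CPM (log2 fold 0.75 ± 0.14) and Tcf7l1 at 194 and 189 against 269 and 299 CPM (log2 fold 0.63 ± 0.10). Lef1 was at 71.9 and 66.8 against 77.1 and 93.8 CPM (log2 fold 0.37 ± 0.11, adjusted p = 0.0413 by edgeR), and DESeq2 did not call it. None of the 4 overlapped between gates, but neither did Ctnnb1 (higher) and Foxq1 (lower), which did not pass. The share of all genes without overlap was not computed. Feedback inhibitors, the activating Lef1 and the mostly repressive Tcf7l1 thus rose in the same class. The other members did not pass. Apcdd1 was at 16.9 and 11.99 against 18.4 and 15.8 CPM, Ctnnb1 at 267 and 278 against 298 and 308 CPM, Tcf7 at 4.51 and 4.58 against 2.86 and 5.35 CPM and Foxq1 at 5.23 and 2.44 against 0.816 and 1.65 CPM.

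Inside single mesenchymal clusters, where no test was made, Nkd1 and Tcf7l1 lay apart between gates in each of the 3 larger clusters. The share of all genes that lay apart there was not computed. In the Tmem132c-led cluster Axin2 was at 31.6 and 36.9 CPM in MMPlow and 54.2 and 51.7 CPM in MMPhigh, and Lef1 overlapped, at 92.9 and 81.6 against 88.7 and 94.9 CPM. Axin2 overlapped in the Col2a1-led cluster. The Tmem132c-led cluster, with the most Axin2, was 21.1% and 22.2% of mesenchymal-like cells in MMPlow and 35.4% and 39.8% in MMPhigh. All 12 endothelial markers were lower in MMPhigh mesenchymal-like cells, with sums of 1251 and 766 CPM in MMPlow and 60.0 and 59.1 CPM in MMPhigh and none at 0, and the median depth was 3705.5 and 4013.5 against 15512 and 21708.5 UMIs. Of the other marker lists, all 10 megakaryocyte markers were lower, with sums of 393 and 412 against 22.4 and 20.2 CPM (2 and 1 at 0 in MMPhigh), and all 11 erythroid markers, with 106 and 69.3 against 19.0 and 13.2 CPM (2 and 1 at 0). Macrophage markers summed to 351 and 294 against 229.7 and 93.3 CPM (6 of 10 lower) and neural markers to 179 and 173 against 236 and 218 CPM (8 of 16 higher). Mesenchymal markers summed to 1486 and 1815 against 1898 and 1846 CPM, with 7 of 12 higher and 1 lower. Here and below, markers were counted as lower or higher only where the libraries of the gates did not overlap. The share of all genes without such overlap was not computed, so these counts have no background to be set against. The part of these markers, of depth and of the cluster shares in the rise was not tested. With cells thinned to 2000 UMIs 2 of 7 of the genes tested passed, where 9.11% of all genes did. Without MMPlow 1 none of the 8 passed, where 3.88% of all genes did, and without MMPlow 2 the counts were 2 of 8 and 9.74%.

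**Figure D4:**
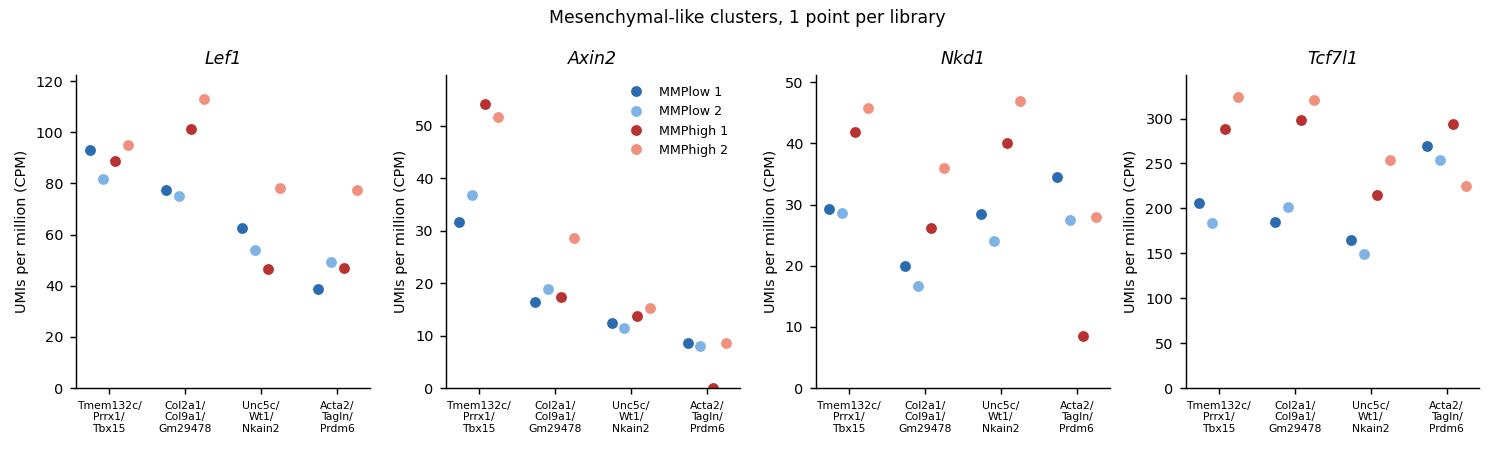
Levels in CPM of genes in the mesenchymal clusters are plotted with 1 point per library, coloured by library (blue for MMPlow, red for MMPhigh). In the Tmem132c/Prrx1/Tbx15 cluster both MMPhigh points of Axin2, Nkd1 and Tcf7l1 lie above both MMPlow points.

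Of 80 other Wnt pathway genes tested in mesenchymal-like cells, 19 rose and 8 fell, where 7.85% of all genes were higher and 12.2% lower. With cells thinned, 5 rose and 3 fell of 68 tested, where 9.11% of all genes passed in either direction. Fewer list genes, and fewer of all genes, passed without MMPlow 1 or without MMPlow 2. The median log2 fold of the 80 genes was 0.21, against 0.01 for all genes. Those of lowest adjusted p that rose were Id2, an inhibitor of differentiation factors (log2 fold 0.76), Nkd2 (1.06) and the Wnt receptor Ror1 (0.74). Those that fell were the endothelial genes Sox17 (-6.30) and Cdh5 (-6.99), and Fzd4 (-0.89). Sox17 and Cdh5 count among the 8 that fell, and Cdh5 is also 1 of the 12 endothelial markers lower in this class. At such folds little RNA of these 2 genes was left in MMPhigh, so their calls add no support beyond their MMPlow levels. Of 12 secreted inhibitors tested 5 rose and 1 fell, and of 20 receptors 6 rose and 2 fell, against the same shares of all genes.

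Within neural-like cells Lef1 and Foxq1 fell in MMPhigh, where 26.8% of all genes passed and 13.6% were lower. Lef1 was at 54.5 and 37.4 CPM in MMPlow and 30.7 and 30.6 CPM in MMPhigh (log2 fold -0.50 ± 0.16 SE, adjusted p = 0.0497 by edgeR). Foxq1 was at 2.81 and 2.73 against 0.180 and 0.128 CPM, from 8 and 9 UMIs against 2 and 5 (log2 fold -4.13 ± 0.64 SE, adjusted p = 0.00201 by edgeR). It passed the low-count filter through its MMPlow levels, so its call adds no support beyond these counts. Axin2 overlapped between gates, at 24.97 and 28.9 against 26.6 and 23.1 CPM, and so did Nkd1, at 26.4 and 25.5 against 25.6 and 22.3 CPM. All 12 endothelial markers were lower in MMPhigh neural-like cells too, with sums of 1003 and 713 against 29.7 and 22.7 CPM and none at 0, and 9 of 10 megakaryocyte markers were lower, with sums of 373 and 329 against 56.0 and 85.2 CPM. The median depth was 3865.5 and 4641 UMIs in MMPlow and 7112 and 21215 UMIs in MMPhigh. The 2 neural subclusters of highest mean Lef1 in MMPlow were smaller in MMPhigh: the Emcn/Flt1/Kdr subcluster was 11.8% and 3.72% of neural-like cells in MMPlow and had no cell in MMPhigh, and neural crest derivative-like cells were 11.3% and 11.3% against 4.92% and 5.32%. The next, led by Kcnmb2 (Lef1 at 99.5 and 66.3 CPM in MMPlow), was larger, at 5.38% and 3.21% against 10.1% and 6.27%. Within neural crest derivative-like cells, where no test was made, Lef1 lay higher in MMPhigh, at 142 and 127 against 81.1 and 99.1 CPM. The part of the markers, of depth and of these shares in the falls was not tested. Lef1 did not pass with DESeq2 (adjusted p = 0.137). By edgeR it did not pass with median-of-ratios scaling (adjusted p = 0.0516) or with the highest 6% of doublet scores removed (adjusted p = 0.0778). Nor did it pass without MMPlow 1 (log2 fold -0.22) or without MMPhigh 2 (log2 fold -0.51). Without MMPhigh 2 none of the 7 genes tested of the 8 passed, where 21.2% of all genes did, and Foxq1 was not tested. Without 4 neural subclusters led by genes of other classes, Lef1 did not pass (log2 fold -0.33, adjusted p = 0.155 by edgeR) and Foxq1 was too low to be tested. With clustering at resolution 0.5 or 2, or with Wnt pathway genes used to cluster, none of the genes tested of the 8 passed in neural-like cells by edgeR (Foxq1 was not tested in the last), where 1.98%, 15.5% and 16.1% of all genes passed.

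Of 78 other Wnt pathway genes tested in neural-like cells 14 rose and 12 fell, where 13.1% of all genes were higher and 13.6% lower. At resolution 0.5 the counts were 0 and 1 of 81, where 1.98% of all genes passed in either direction, and at resolution 2 they were 8 and 7 of 79, where 15.5% did. Without MMPlow 1 they were 8 and 3 of 87, where 11.6% of all genes passed. Ror2 (0.89), Ror1 (0.75) and Apc2 (0.69) had the lowest adjusted p among those that rose, and Fzd4 (-1.73), Sfrp1 (-0.84) and Cdh5 (-7.51) among those that fell, as log2 folds. Cdh5, which counts among the 12 that fell, is also 1 of the 12 endothelial markers lower in this class. At such a fold little of its RNA was left in MMPhigh, so its call adds no support beyond its MMPlow levels. Wnt7b, the neural ligand of CNS vessels, fell from 9.49 and 9.42 CPM to 3.87 and 4.12 CPM (adjusted p = 0.0118 by edgeR). Neural tube progenitor-like cells, which held Wnt7b, were 11.6% and 15.2% of neural-like cells in MMPlow and 3.23% and 3.69% in MMPhigh, and the part of that share was not tested.

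**Figure D5:**
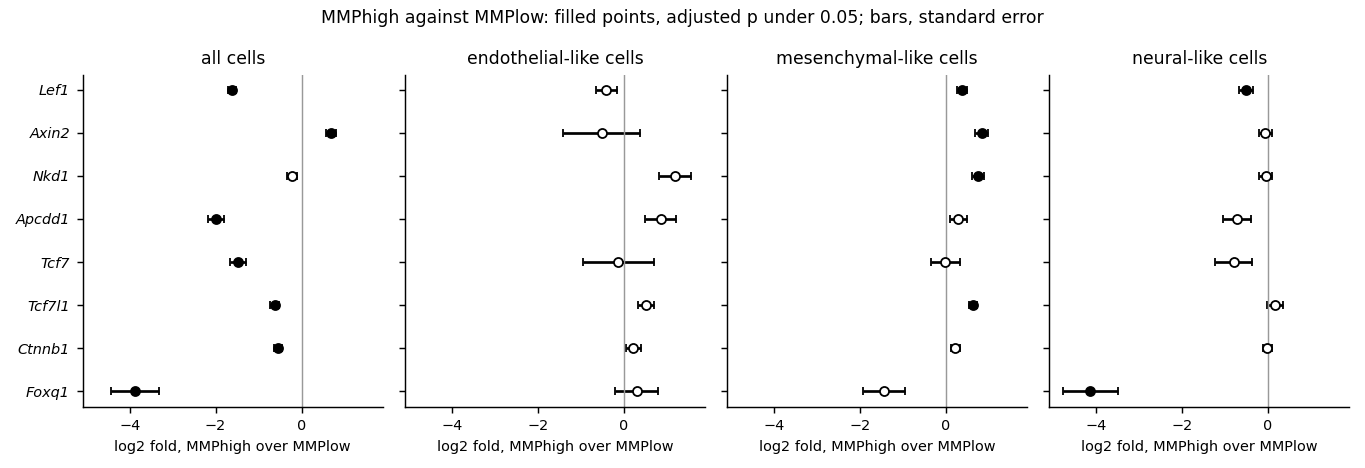
Log2 folds of MMPhigh over MMPlow are plotted for the 8 genes in all cells and in endothelial-like, mesenchymal-like and neural-like cells, with bars of 1 standard error. Of the 8 genes, 7 passed the adjusted p of 0.05 over all cells, 0 in endothelial-like, 4 in mesenchymal-like and 2 in neural-like cells, where 53.7%, 1.43%, 20.1% and 26.8% of all genes tested did, so the neural-like count lies near the share of all genes.

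The difference in the gate effect between classes was itself tested by edgeR. It passed for Nkd1, Apcdd1 and Foxq1 between neural-like and endothelial-like cells, where 6.44% of all genes passed. It passed for Lef1, Axin2, Nkd1, Apcdd1, Ctnnb1 and Foxq1 between neural-like and mesenchymal-like cells, where 12.5% did, each lower in the neural-like cells. In both pairs Foxq1 rests on 8 and 9 neural-like UMIs in MMPlow and 2 and 5 in MMPhigh, so its differences add no support beyond these counts. Between mesenchymal-like and endothelial-like cells none of the 8 passed, where 3.2% of all genes did. There 2 of the 8 (Lef1 and Foxq1) had an unadjusted p under 0.05, as had 14.8% of all genes, and DESeq2 was not run on these differences.

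Haematopoietic progenitor-like cells numbered 4 in MMPhigh 1 and 27 in MMPhigh 2, too few for the fit, against 638 and 725 in the MMPlow libraries. Their median depth was 2812.5 and 3300 UMIs in MMPlow and 11061.5 and 32768 UMIs in MMPhigh. Lef1 had 0 UMIs of 931431 in MMPhigh 2, where 3 UMIs, the limit that a count of 0 allows, would be 3.22 CPM, against 20.8 and 10.9 CPM in MMPlow. Tcf7l1 was at 2.15 CPM (exact 95% Poisson interval 0.260 to 7.76) against 27.6 and 20.5 CPM. These limits cover counting error only. In a finer clustering (Leiden resolution 2) the fit was possible, and Lef1, Apcdd1 and Tcf7l1 of 6 genes tested fell (adjusted p = 0.0256, 0.0341 and 0.0361 by edgeR), where 7.04% of all genes passed and 5.38% were lower and 1.66% higher. That class held 1306, 1290, 38 and 70 cells in MMPlow 1, MMPlow 2, MMPhigh 1 and MMPhigh 2, more than the main class in each library. UMIs of Lef1 numbered 61 and 53 in the MMPlow libraries against 0 and 3 in those of MMPhigh, those of Apcdd1 25 and 36 against 0 and 1 and those of Tcf7l1 75 and 85 against 0 and 9. All 3 thus had no UMI in MMPhigh 1, where 3 UMIs would be 6.23 CPM, against 15.2 and 10.2 CPM of Lef1, 6.22 and 6.92 CPM of Apcdd1 and 18.7 and 16.3 CPM of Tcf7l1 in MMPlow, and no fold is given. In MMPhigh 2 they were at 1.32, 0.440 and 3.96 CPM. All 3 passed the low-count filter through their MMPlow levels, so the calls add no support beyond these counts. Mean levels of Lef1, Apcdd1 and Tcf7l1 in macrophage-like cells of MMPlow were 11.2, 5.82 and 16.5 CPM, near those of this class. Macrophage-like cells numbered 1610, 1939, 1124 and 920 in MMPlow 1, MMPlow 2, MMPhigh 1 and MMPhigh 2. In that order they held 78, 84, 21 and 8 UMIs of Lef1 and 42, 41, 18 and 28 of Apcdd1. For Tcf7l1 the counts were 113, 125, 47 and 59. Ctnnb1, with more UMIs, did not pass (adjusted p = 0.0999 by edgeR). It was at 163 and 160 CPM in MMPlow and 87.2 and 86.3 CPM in MMPhigh. In this class all 12 endothelial markers were lower in MMPhigh, with sums of 1001 and 911 CPM in MMPlow and 314 and 291 CPM in MMPhigh, where 2 and 1 of the 12 were at 0. Mesenchymal markers, 10 of 12 of them lower, summed to 95.1 and 70.7 against 12.5 and 26.9 CPM, with 8 and 4 of the 12 at 0 in MMPhigh. Macrophage markers (9 of 10 lower) summed to 597 and 739.9 against 382 and 409 CPM, neural markers (7 of 16 lower, 1 higher) to 142 and 142 against 89.3 and 90.7 CPM and megakaryocyte markers (4 of 10 lower, 2 higher) to 768 and 699 against 449 and 319 CPM. Erythroid markers (3 of 11 lower, 4 higher) summed to 196 and 167 against 378 and 239 CPM. The part of these markers, of the levels found in macrophage-like cells and of depth in the falls was not tested.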

How the data were processed

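The deposited count matrices hold whole-number UMI counts per gene and cell barcode, which the authors made with Cell Ranger (10x Genomics), version 7.0.1 per the file headers and 2.1.1 per the submitters' processing notes, on mm10 per the same notes. Barcodes with at least 2000 UMIs and 1000 genes and at most 25% mitochondrial UMIs were kept, and doublets called by Scrublet were removed (2, 996, 0 and 68 in MMPlow 1, MMPlow 2, MMPhigh 1 and MMPhigh 2). The caller did not work in MMPlow 1 and MMPhigh 1, so removing the highest 6% of scores was an alternative. Cells were clustered with scanpy 1.11.5 (2000 variable genes without Wnt pathway genes, 30 components, 15 neighbours, Leiden resolution 1 and 0.5 within classes). Clusters were named from marker lists, with thresholds set after the clusters were seen. Clusters of classes without such a name are called by their leading genes.

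UMIs were summed per library and class and tested with edgeR 4.0.16 (quasi-likelihood, TMM, filterByExpr) in R 4.3.3, with Benjamini-Hochberg adjustment over all genes. DESeq2 1.42.0 was an alternative, with other scaling, filters, resolutions, thinning and left-out libraries. The fits were tested on simulated data, in which the libraries of a comparison shared a pooled profile and a common dispersion. Classes needed 20 cells in each library, and endothelial-like cells 10.

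The 8 genes and the lists were chosen with earlier results of these data known. Besides the 8 genes, fixed pathway genes were named, with up to 3 list genes per direction by adjusted p, up to 3 by highest level and up to 3 of most similar pattern. Slc2a1, Mfsd2a, Slc16a1, Ocln, Abcg2 and Cdh2 were named after their values were seen. Opposite-strand genes overlap 6 of the 8 genes. RefSeq start sites of Apcdd1 and Foxq1 were not used here.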

Additional observations from a re-analysis of the deposited data

Results flagged for a closer look

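The change between gates differed between cell classes for 6 of the 8 genes, by edgeR tests of the difference itself (3 pairs of classes, adjusted over all genes within each pair). Each value is the log2 fold of MMPhigh over MMPlow in one class minus that in the other. In neural-like minus endothelial-like cells it was -1.25 for Nkd1 (adjusted p = 0.0246 by edgeR), -1.64 for Apcdd1 (adjusted p = 0.0354 by edgeR) and -4.58 for Foxq1 (adjusted p = 0.000106 by edgeR), where 6.44% of all genes passed. These 3 rest on 16 and 14 endothelial-like cells of MMPhigh. In MMPhigh 2, 4 CNS-type cells held 23 of 27 endothelial UMIs of Nkd1, 27 of 27 of Apcdd1 and 9 of 9 of Foxq1. CNS-type cells were 16.5% of endothelial-like cells in each MMPlow library and 6.25% and 28.6% in MMPhigh, and the part of that share was not tested. In neural-like minus mesenchymal-like cells it was -0.93 for Lef1 (adjusted p = 0.00167 by edgeR), -0.96 for Axin2 (adjusted p = 0.00408 by edgeR) and -0.88 for Nkd1 (adjusted p = 0.00764 by edgeR), where 12.5% of all genes passed. In the same pair it was -1.12 for Apcdd1, -0.29 for Ctnnb1 and -2.86 for Foxq1 (adjusted p = 0.0246, 0.0225 and 0.0344 by edgeR). Foxq1 rests on 8, 9, 2 and 5 neural-like UMIs in MMPlow 1, MMPlow 2, MMPhigh 1 and MMPhigh 2. Endothelial markers summed to 1003 and 713 CPM in MMPlow and 29.7 and 22.7 CPM in MMPhigh in neural-like cells, and to 1251 and 766 against 60.0 and 59.1 CPM in mesenchymal-like cells. The Tmem132c-led cluster, with the most Axin2, was 21.1% and 22.2% of mesenchymal-like cells in MMPlow and 35.4% and 39.8% in MMPhigh, and neural tube progenitor-like cells were 11.6% and 15.2% against 3.23% and 3.69% of neural-like cells. The part of these markers and shares in the differences was not tested.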

How the results depend on the processing

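Over all cells, 96 cells of each of 5 classes per library were taken, an alternative added once the data had been seen. It gave 1 of the 8 genes, 5 of 66 list genes and 1220 of 13819 genes called. The log2 folds of Axin2 (-0.034) and Tcf7l1 (0.20) changed sign. These sums were equal in cells per class but not in UMIs. In endothelial-like cells, 1 of the 8 genes passed with no low-count filter, where 604 of 24590 genes did. With the stricter cell filter 1 passed, where 283 of 12811 genes did. The main fit gave 0, where 215 of 15039 genes passed. For list genes there, against 1, the counts were 3 with DESeq2, 3 with median-of-ratios scaling, 5 with no low-count filter, 2 with the replicate block, 2 with the stricter cell filter, 0 with thinning and 2 at resolution 2. For all genes, against 215, they were 398 with DESeq2, 604 with no filter and 53 with thinning. In mesenchymal-like cells thinning gave 2 calls among the 8 genes, against 4. It gave 8 among list genes, against 27, and 1137 among all genes, against 3074. DESeq2 gave 1766 among all genes. In neural-like cells, against 2 of the 8 genes, DESeq2, median-of-ratios scaling, the stricter filter and thinning each gave 1, and resolutions 0.5 and 2, clustering with Wnt genes, and leaving out mixed subclusters (also added then) each gave 0. Foxq1 was too low there to be tested with the stricter filter, thinning, Wnt genes, or without mixed subclusters. Of all genes there, 2790 of 24806 passed with DESeq2 and 3946 of 14934 with median-of-ratios scaling. With the stricter filter 3424 of 14388 passed, and without mixed subclusters 4158 of 14146. List genes there, against 26, were 16 with thinning, 1 at resolution 0.5, 15 at resolution 2 and 15 with Wnt genes, and all genes, against 3998, were 2117, 312, 2328 and 2021. Leaving out 1 library gave, of the 8 genes, 0 to 3, 0 to 4 and 0 to 2 in endothelial-like, mesenchymal-like and neural-like cells. It gave 0 to 8, 5 to 34 and 11 to 24 list genes, and 50 to 711, 610 to 3693 and 1920 to 3601 genes. Where a library was left out, the lone one of its gate was assumed to vary like the others. Of the folds of single genes 417 kept direction and side of the threshold, 27 were weaker, 11 stronger and 2 reversed. The replicate block left the counts of the 8 genes at 7, 0, 4 and 2 over all, endothelial-like, mesenchymal-like and neural-like cells. Same-numbered libraries deviated together with correlations of 0.040, 0.033, 0.074 and -0.061, so the numbers were not taken as pairs. The causes of these changes were not tested. The test of progenitor-like cells was not run at the main resolution, with 4 cells in MMPhigh 1. In simulated data for endothelial-like cells a log2 change of 1 was recovered for 25% of genes and one of 2 for 58.2%.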
